A study of Mus musculus with 2 samples.

Results

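The genes described here are the endothelial growth factor gene Pdgfb and 8 genes of mural cells, the pericytes and smooth muscle cells that wrap the wall of blood vessels. The mural genes are Pdgfrb, Notch3, Rgs5, Vtn, Abcc9, Atp13a5, Ano1 and Cspg4. They were picked by symbol, and all 9 were among the 25906 genes listed for the series. Transcripts of single cells were counted after whole brains of adult mice had been sorted for astrocytes and endothelium; all the mice carry a LacZ allele of Il34, the gene of the cytokine interleukin-34. There was 1 library from IL34LacZ/LacZ mice, homozygous for the LacZ allele, and 1 library from IL34LacZ/+ mice, which carry the same allele on one chromosome and which the submitters used as the control. How many mice stood behind each library, how old they were and which markers were sorted on is not given in the sources used here. With 1 library per genotype there is no replicate, so nothing below was tested, and every interval is a 95% interval for counting error only.

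In the brain, endothelial cells secrete PDGF-B, the dimer encoded by Pdgfb, and hold it at the vessel wall through its affinity for heparan sulphate. Pericytes carry its receptor tyrosine kinase, PDGFR-beta, encoded by Pdgfrb, and mouse brains with too little of this signal are known to have fewer pericytes and a leakier blood-brain barrier. Notch3, a receptor that endothelial Notch ligands can activate, is known to act in mural cells of arteries and capillaries.

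Below, the 2 libraries are called by their labelled genotypes. After filtering, 1168 cells of IL34LacZ/LacZ and 1665 of IL34LacZ/+ remained, with a median of 10378 unique molecular identifiers (UMIs, each standing for 1 captured transcript) in IL34LacZ/LacZ and 8096 in IL34LacZ/+. Both libraries were clustered together, and clusters were named from marker lists that held none of the 9 genes. Endothelial-like cells numbered 301 in IL34LacZ/LacZ and 509 in IL34LacZ/+ and had UMIs of all 12 endothelial markers in each library. Pericyte-like cells numbered 48 in IL34LacZ/LacZ and 38 in IL34LacZ/+, formed 1 cluster and had UMIs of all 15 pericyte markers in each library, although pericytes are not among the cell types named for the sort. The other named classes were fibroblast-like, meningeal border-like, astrocyte-like, oligodendrocyte-like, microglia-like, choroid plexus epithelium-like, neuron-like and neuroblast-like cells. Il34 itself, the targeted gene, had 516 counts per 1000000 UMIs (CPM) in pericyte-like cells of IL34LacZ/LacZ and 308 CPM in those of IL34LacZ/+. No source used here says whether the counted tags lie outside the part of Il34 that LacZ replaces, so Il34 checks neither label. The libraries shared 8 barcodes, of which 2 were among the cells kept.

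Pdgfb was found in most endothelial-like cells and in few cells of most other classes. Its summed level in endothelial-like cells was 314 CPM (288 to 341, 548 UMIs) in IL34LacZ/LacZ, against 437 CPM (412 to 464, 1127 UMIs) in IL34LacZ/+. A UMI of Pdgfb was present in 207 of 301 of these cells in IL34LacZ/LacZ, or 68.8% at a median depth of 4852 UMIs, and in 380 of 509 in IL34LacZ/+, or 74.7% at 4293 UMIs. In oligodendrocyte-like cells, which should lack it, the share was 0.427% in IL34LacZ/LacZ and 1.18% in IL34LacZ/+ at deeper medians of 16736 UMIs in IL34LacZ/LacZ and 13724 in IL34LacZ/+, so the endothelial level stood far above background. The median endothelial-like cell had 2.45 Pdgfb UMIs per 10000 in IL34LacZ/LacZ and 3.69 in IL34LacZ/+, and the highest single cell had 20.6 in IL34LacZ/LacZ and 27.1 in IL34LacZ/+.

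Pdgfb was lower in endothelial-like cells of IL34LacZ/LacZ, by a log2 ratio of −0.48 (−0.63 to −0.33). The ratio stayed short of the 1.5-fold used here to call a gene higher or lower, a call that also requires the interval to leave out 1. Of 9518 genes measured in the class, meaning those with at least 30 UMIs, 9.42% were called in either direction and 6.84% were called lower. The median log2 ratio over all of these genes was −0.08, and 15.6% of them had a ratio at or below that of Pdgfb. After each cell was thinned to 1000 UMIs, 24.6% of endothelial-like cells in IL34LacZ/LacZ and 32.4% in IL34LacZ/+ had a Pdgfb UMI, so the difference in detection was in the same direction at equal depth. Haemoglobin and other red cell transcripts differed in the same cells, at a summed 47896 CPM in IL34LacZ/LacZ against 7087 CPM in IL34LacZ/+. With mitochondrial, ribosomal protein and haemoglobin genes taken out of the totals the Pdgfb log2 ratio was −0.41, and without cells that held choroid plexus markers or at least 2% haemoglobin UMIs it was −0.42. The 12 endothelial markers together reached 23660 CPM in IL34LacZ/LacZ and 28019 CPM in IL34LacZ/+. No replicate library shows whether a difference of this size lies beyond that between 2 libraries of the same genotype.

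The lower Pdgfb level appeared in every part of the endothelial-like class. Cells were assigned to an arterial, capillary, venous or fenestrated zone by their highest zone marker score, and 29.4% of the zoned cells in IL34LacZ/LacZ and 26.0% in IL34LacZ/+ lay near the cut between zones. Arterial cells had 303 CPM (63 UMIs, 43 cells) in IL34LacZ/LacZ and 472 CPM (212 UMIs, 80 cells) in IL34LacZ/+. Capillary cells had 401 CPM (276 UMIs, 123 cells) in IL34LacZ/LacZ and 470 CPM (567 UMIs, 231 cells) in IL34LacZ/+. These were the zones of highest level, and in IL34LacZ/+ their intervals overlapped almost wholly. Venous cells had 278 CPM (113 UMIs) in IL34LacZ/LacZ and 345 CPM (173 UMIs) in IL34LacZ/+. Fenestrated cells, the kind found where the barrier is open, had 214 CPM (51 UMIs) in IL34LacZ/LacZ and 377 CPM (70 UMIs) in IL34LacZ/+. Cells with no zone had 218 CPM in IL34LacZ/LacZ and 448 CPM in IL34LacZ/+. The log2 ratio between libraries was −0.64 (−1.07 to −0.23) in arterial cells and −0.23 (−0.44 to −0.02) in capillary cells. It was −0.31 (−0.67 to 0.04) in venous, −0.82 (−1.37 to −0.28) in fenestrated and −1.04 (−1.58 to −0.52) in unzoned cells. Pdgfb was called lower in arterial, fenestrated and unzoned cells, where 6.11%, 19% and 12.2% of measured genes were, in that order. The 5 endothelial clusters, which need no zone score, ranged in log2 ratio between −0.90 in the cluster led by Plvap, with 8 cells in IL34LacZ/LacZ and 10 in IL34LacZ/+, and −0.26 in the cluster led by Ctla2a. The ratio was below 0 in each of the 5.

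**Figure D1:**
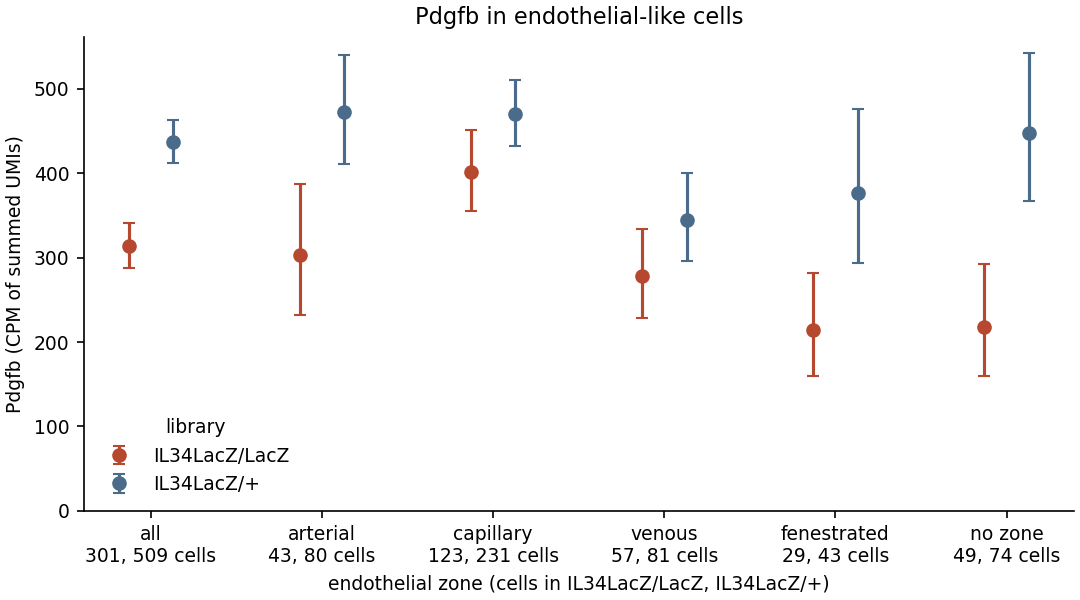
Level of Pdgfb (CPM of summed UMIs, vertical axis) in all endothelial-like cells and in each endothelial zone (horizontal axis), with IL34LacZ/LacZ left and IL34LacZ/+ right. Points are class sums and bars exact Poisson 95% intervals for counting error only; the IL34LacZ/LacZ point is the lower one in each pair, at 314 against 437 CPM over all cells.

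Within a library, Pdgfb stood higher in capillary than in venous cells. The capillary level was 1.44 times the venous one in IL34LacZ/LacZ, a log2 ratio of 0.53 (0.21 to 0.86). It was 1.36 times the venous one in IL34LacZ/+, a log2 ratio of 0.45 (0.20 to 0.70). Thinning cells to 1000 UMIs turned this to −0.18 (−0.98 to 0.66) in IL34LacZ/LacZ and left 0.55 (−0.06 to 1.22) in IL34LacZ/+, at far fewer UMIs. Arterial cells were below capillary cells in IL34LacZ/LacZ, with a log2 ratio of −0.41 (−0.82 to −0.01), and level with them in IL34LacZ/+, at 0.01 (−0.23 to 0.24). Capillary cells were above fenestrated cells by 0.91 (0.47 to 1.37) in IL34LacZ/LacZ and by 0.32 (−0.04 to 0.70) in IL34LacZ/+, and venous over fenestrated cells gave 0.38 (−0.11 to 0.88) in IL34LacZ/LacZ and −0.13 (−0.54 to 0.29) in IL34LacZ/+. Venous and fenestrated cells thus did not differ beyond counting error in either library, and whether the order of zones differs between the libraries was not tested.

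Outside the endothelium, Pdgfb was highest in microglia-like cells, from very few UMIs. The 14 microglia-like cells of IL34LacZ/LacZ gave 358 CPM (200.2 to 590.0, 15 UMIs), and the 45 of IL34LacZ/+ gave 196 CPM (118 to 306, 19 UMIs). In IL34LacZ/LacZ a single cell held 80.0% of these UMIs, which leaves the level of the class uncertain. The small microglia-like cluster led by Ikzf1 held 13 of the UMIs in 3 cells of IL34LacZ/LacZ and 8 in 7 cells of IL34LacZ/+. The cluster led by C1qb had 84.9 CPM (2 UMIs) in IL34LacZ/LacZ and 151 CPM (11 UMIs) in IL34LacZ/+. In IL34LacZ/+ the endothelial-like level was 2.23 times the microglia-like one (1.42 to 3.72). Choroid plexus epithelium-like cells had 13.3 CPM (49 UMIs) in IL34LacZ/LacZ and 21.1 CPM (90 UMIs) in IL34LacZ/+, and neuron-like cells 35.5 CPM (11 UMIs) in IL34LacZ/LacZ and 141 CPM (51 UMIs) in IL34LacZ/+. In both of these classes Pdgfb was called lower in IL34LacZ/LacZ, with log2 ratios of −0.67 and −1.99, where 1.48% of genes in choroid plexus epithelium-like cells and 7.44% in neuron-like cells were. Pericyte-like cells had 1 Pdgfb UMI in 48 cells of IL34LacZ/LacZ (3.85 CPM) and 5 UMIs in 2 of 38 cells of IL34LacZ/+ (22.6 CPM). The ligand was thus far below its endothelial-like level in the cells that carry the receptor. Endothelial markers summed to 277 CPM in pericyte-like cells of IL34LacZ/LacZ and 1476 CPM in those of IL34LacZ/+, and their part in these Pdgfb UMIs was not tested.

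The 8 mural genes had their highest level in pericyte-like cells in both libraries. Over all 12446 genes compared among 9 classes, 5.43% were highest in pericyte-like cells in both libraries and 8.38% in endothelial-like cells in both. The mural genes took no part in the clustering or in the naming of the class.

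**Figure D2:**
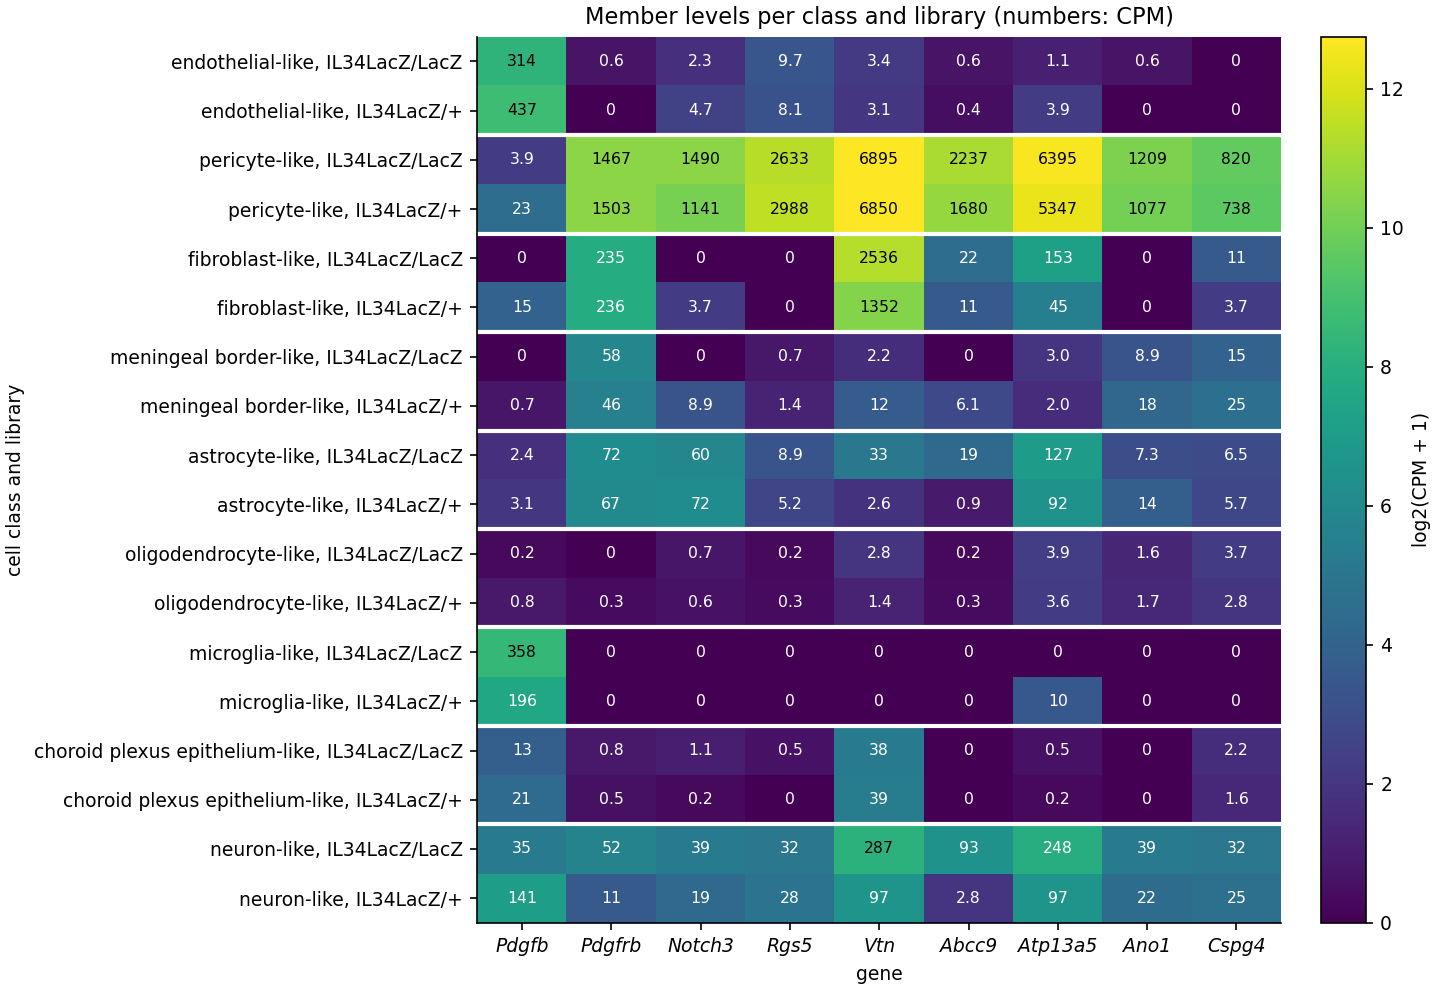
Level of each of the 9 genes (columns) in 9 cell classes, with IL34LacZ/LacZ above IL34LacZ/+ in each pair of rows. Colour gives log2(CPM + 1) and the printed numbers are CPM; Pdgfb stands out in endothelial-like and microglia-like rows, and the 8 mural genes in the pericyte-like rows, for example Vtn at 6895 CPM in IL34LacZ/LacZ and 6850 CPM in IL34LacZ/+.

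Pdgfrb, the PDGF-B receptor, had 1467 CPM (1323 to 1622, 381 UMIs) in pericyte-like cells of IL34LacZ/LacZ and 1503 CPM (1346 to 1674, 332 UMIs) in those of IL34LacZ/+. A UMI was present in 47 of 48 cells in IL34LacZ/LacZ and 37 of 38 in IL34LacZ/+. In endothelial-like cells it had 1 UMI in 301 cells of IL34LacZ/LacZ and 0 UMIs in 509 cells of IL34LacZ/+, a count of 0 that allows up to 1.16 CPM, taken as 3 counts of the class total. Ligand and receptor transcripts thus lay mostly in separate classes. A UMI of both was found in 4 of 1168 cells of IL34LacZ/LacZ and in 5 of 1665 cells of IL34LacZ/+, and 1 of those in IL34LacZ/LacZ and 2 of those in IL34LacZ/+ were pericyte-like. Notch3 had 1490 CPM (1345 to 1646, 387 UMIs) in IL34LacZ/LacZ, with a UMI in 48 of 48 pericyte-like cells, and 1141 CPM (1004 to 1291, 252 UMIs) in IL34LacZ/+, with a UMI in 35 of 38.

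Rgs5, a regulator that shortens G-protein signalling and is widely used as a pericyte marker, had 2633 CPM (684 UMIs) in pericyte-like cells of IL34LacZ/LacZ and 2988 CPM (660 UMIs) in those of IL34LacZ/+. Its UMIs were uneven among cells, with 12.1% of them in the top cell of IL34LacZ/LacZ and 14.2% in that of IL34LacZ/+. Vtn, the gene of the matrix and plasma protein vitronectin, had 6895 CPM (1791 UMIs) in IL34LacZ/LacZ and 6850 CPM (1513 UMIs) in IL34LacZ/+. Per cell, Vtn ran between 0 and 255 UMIs per 10000 in IL34LacZ/LacZ, with a median of 72.4, and between 0 and 212 in IL34LacZ/+, with a median of 69.2.

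The membrane transport genes followed the same class pattern. Abcc9, which encodes the sulphonylurea receptor subunit of ATP-sensitive potassium channels, had 2237 CPM (2059 to 2426, 581 UMIs) in pericyte-like cells of IL34LacZ/LacZ and 1680 CPM (1513 to 1860, 371 UMIs) in those of IL34LacZ/+. Atp13a5, a P5-type ATPase known as a marker of brain pericytes, had 6395 CPM (6091 to 6710, 1661 UMIs) in IL34LacZ/LacZ and 5347 CPM (5046 to 5661, 1181 UMIs) in IL34LacZ/+. For both genes the counting intervals of the 2 libraries did not overlap over all pericyte-like cells. Ano1, a calcium-activated chloride channel, had 1209 CPM (314 UMIs) in IL34LacZ/LacZ and 1077 CPM (238 UMIs) in IL34LacZ/+. Cspg4, the NG2 proteoglycan of pericytes and oligodendrocyte precursors, had 820 CPM (213 UMIs) in IL34LacZ/LacZ and 738 CPM (163 UMIs) in IL34LacZ/+. All 4 were detected in at least 81.6% of pericyte-like cells of either library.

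None of the 8 mural genes was called higher or lower between the libraries in pericyte-like cells, where 20.7% of 3151 measured genes were. For 4 of the 8 the interval of the ratio left out 1, as it did for 25.1% of all measured genes. The log2 ratio was 0.39 (0.15 to 0.62) for Notch3, 0.41 (0.22 to 0.61) for Abcc9, 0.26 (0.15 to 0.37) for Atp13a5 and −0.18 (−0.34 to −0.03) for Rgs5. It was −0.04 (−0.25 to 0.18) for Pdgfrb, 0.01 (−0.09 to 0.11) for Vtn, 0.17 (−0.08 to 0.42) for Ano1 and 0.15 (−0.15 to 0.46) for Cspg4. Over these cells the intervals of all but Notch3 and Abcc9 left out a 1.5-fold difference in either direction. The median over the 8 genes was 0.16 and over all measured genes 0.08.

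These ratios moved with a few cells. In IL34LacZ/+, 3 of the 38 pericyte-like cells carried at least 5 choroid plexus markers or at least 2% haemoglobin UMIs, and they held 21.1% of the UMIs of the class. In IL34LacZ/LacZ, 2 of the 48 did, both by haemoglobin, holding 3.80%. Of the 3 in IL34LacZ/+, only 1 had at least 5 choroid plexus markers, and 2 had at least 2% haemoglobin UMIs. The choroid plexus markers summed to 1013 CPM in pericyte-like cells of IL34LacZ/LacZ, with 2 of 11 markers present. They summed to 44182 CPM in IL34LacZ/+, with all 11 present. For the marker Ttr, 96.9% of the UMIs in IL34LacZ/+ lay in 1 cell. Of the UMIs of all 11 markers there, 97.1% lay in those 3 cells. Without such cells, Notch3 stood at 1477 CPM in IL34LacZ/LacZ and 1338 CPM in IL34LacZ/+, Abcc9 at 2265 CPM in IL34LacZ/LacZ and 2032 CPM in IL34LacZ/+, and Atp13a5 at 6500 CPM in IL34LacZ/LacZ and 6154 CPM in IL34LacZ/+. Their log2 ratios were then 0.14 (−0.10 to 0.39), 0.16 (−0.04 to 0.35) and 0.08 (−0.03 to 0.19), so none of the 3 intervals left out 1 any longer, while Rgs5 was at −0.34 (−0.50 to −0.18) and Vtn at −0.12 (−0.23 to −0.02). When each cell was assigned by its own marker scores in place of its cluster, Rgs5 was called lower at −0.62 (−0.77 to −0.46), and Atp13a5 changed sign to −0.11. All 8 ratios were lower under this assignment. Pdgfrb was then at −0.40 (−0.62 to −0.18), Vtn at −0.39 (−0.49 to −0.29) and Ano1 at −0.36 (−0.61 to −0.10), and for each of these 3 the interval now left out 1. Endothelial markers summed to 277 CPM in pericyte-like cells of IL34LacZ/LacZ and 1476 CPM in those of IL34LacZ/+, and smooth muscle markers to 655 CPM in IL34LacZ/LacZ and 964 CPM in IL34LacZ/+. The part of smooth muscle markers in the ratios was not tested. Leaving out cells with at least 3 endothelial markers kept 46 cells of IL34LacZ/LacZ and 34 of IL34LacZ/+, among them any with fewer such markers. Notch3 was then at 0.39, Atp13a5 at 0.07 (−0.04 to 0.18) and Rgs5 at −0.05 (−0.22 to 0.13). For Atp13a5 and Rgs5 the interval then held 1.

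**Figure D3:**
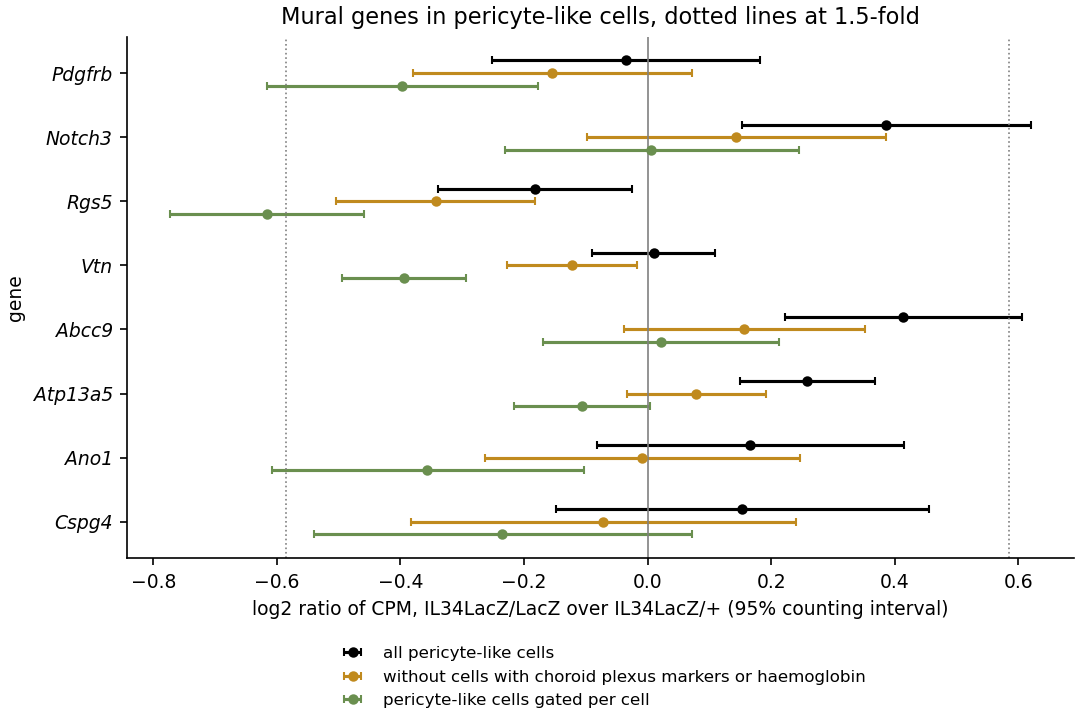
Log2 ratio of CPM, IL34LacZ/LacZ over IL34LacZ/+, for the 8 mural genes in pericyte-like cells (horizontal axis) with 95% counting intervals. Black points use all pericyte-like cells, ochre points leave out cells with choroid plexus markers or haemoglobin, and green points use cells gated one by one; Notch3, Abcc9 and Atp13a5 lie right of 0 in black and closer to 0 in the other colours, Pdgfrb, Vtn, Ano1 and Cspg4 lie left of 0 in green, and Rgs5 alone passes the dotted 1.5-fold line, in green.

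The mural genes were found together in single cells. All 8 had a UMI in 36 of 48 pericyte-like cells of IL34LacZ/LacZ and in 26 of 38 of IL34LacZ/+, and the lowest cell had 5 of them in IL34LacZ/LacZ and 3 in IL34LacZ/+. At 1000 UMIs per cell the median was still 6 genes in each library. No endothelial-like cell had more than 2, and 277 of 301 in IL34LacZ/LacZ and 470 of 509 in IL34LacZ/+ had none. Cells outside the pericyte-like cluster with at least 6 mural genes were rare, at 2 of 114 astrocyte-like, 3 of 39 neuron-like and 2 of 77 unnamed cells in IL34LacZ/LacZ and 1 of 243 astrocyte-like and 2 of 49 neuron-like cells in IL34LacZ/+, with 0 of 108 unnamed cells there. In neuron-like cells they held 95.7% of the summed UMIs of the 8 genes in IL34LacZ/LacZ and 85.3% in IL34LacZ/+, although the share was smaller for some genes. Without those cells Cspg4 still had 8 of its 9 UMIs in neuron-like cells of IL34LacZ/+, and Ano1 still had 6 of its 12 in those of IL34LacZ/LacZ.

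**Figure D4:**
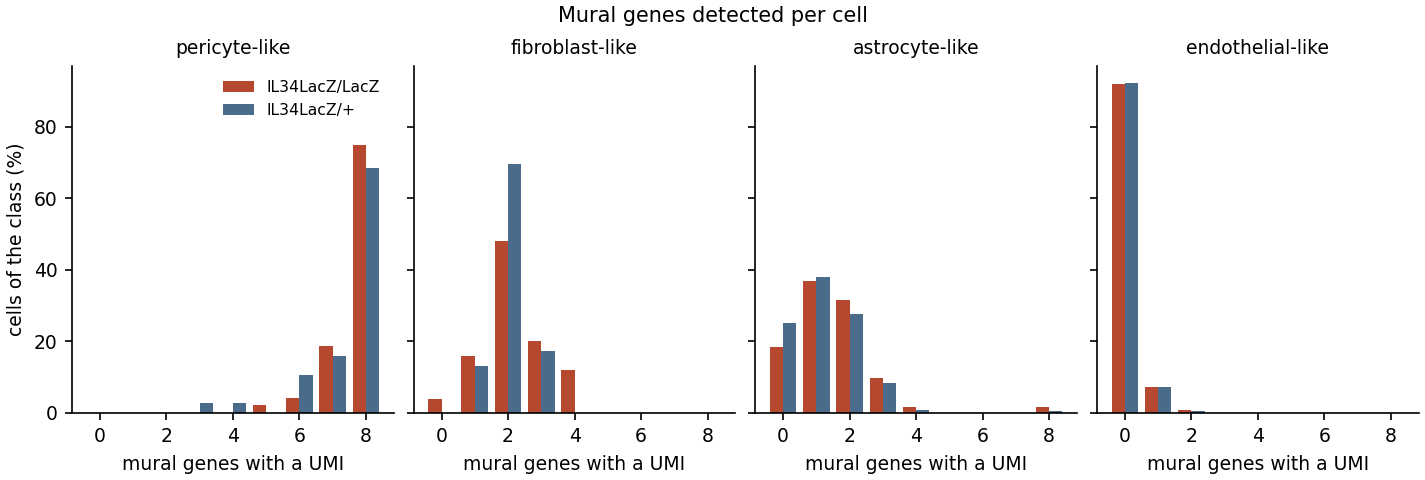
Share of cells (vertical axis, %) by the number of the 8 mural genes with at least 1 UMI (horizontal axis) in 4 classes, with IL34LacZ/LacZ left and IL34LacZ/+ right in each pair of bars. Pericyte-like cells peak at 8 genes and endothelial-like cells at 0.

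Fibroblast-like cells, the perivascular and meningeal cells that make collagen, had the second highest levels of Pdgfrb and Vtn. Pdgfrb was at 235 CPM (63 UMIs in 25 cells) in IL34LacZ/LacZ and 236 CPM (63 UMIs in 23 cells) in IL34LacZ/+, so the pericyte-like level was 6.23 times that level in IL34LacZ/LacZ and 6.37 times in IL34LacZ/+. Vtn was at 2536 CPM (679 UMIs) in IL34LacZ/LacZ and 1352 CPM (361 UMIs) in IL34LacZ/+, a log2 ratio of 0.91 (0.72 to 1.10). At 1000 UMIs per cell that ratio was 0.56 (−0.05 to 1.19), and Vtn was then not called. Of the 3 mural genes with enough UMIs in this class, Vtn and Atp13a5 were called higher in IL34LacZ/LacZ, where 11% of 3661 genes were. Atp13a5 had 41 UMIs in 5 cells of IL34LacZ/LacZ, 46.3% of them in 1 cell, against 12 UMIs in 3 cells of IL34LacZ/+, 50% of them in 1 cell. Rgs5 and Ano1 had no UMI in either library, which allows up to 11.2 CPM in each (3 counts of the total).

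Astrocyte-like cells carried 3 of the mural genes at low level. Pdgfrb was at 71.9 CPM (89 UMIs in 114 cells) in IL34LacZ/LacZ and 66.7 CPM (153 UMIs in 243 cells) in IL34LacZ/+. Notch3 was at 59.8 CPM (74 UMIs) in IL34LacZ/LacZ and 72.0 CPM (165 UMIs) in IL34LacZ/+, and Atp13a5 at 127 CPM (157 UMIs) in IL34LacZ/LacZ and 92.0 CPM (211 UMIs) in IL34LacZ/+. None of the 3 was called between the libraries, against 6.41% of genes, although the interval of Atp13a5 left out 1, with a log2 ratio of 0.46 (0.16 to 0.77). The 3 astrocyte-like clusters differed in direction and in their share of each library. Atp13a5 was at −0.93 (−1.70 to −0.22) in the cluster with 43 cells of IL34LacZ/LacZ and 117 of IL34LacZ/+, at 0.58 (0.02 to 1.13) in that with 29 cells of IL34LacZ/LacZ and 57 of IL34LacZ/+, and at 1.04 (0.54 to 1.56) in that with 42 cells of IL34LacZ/LacZ and 69 of IL34LacZ/+. Notch3 was at −0.64, 2.01 and −0.41 in the same clusters. These cluster ratios include the 2 cells of IL34LacZ/LacZ and 1 of IL34LacZ/+ with at least 6 mural genes, whose part in them was not tested. Vtn, in the same order of clusters, had 0, 21 and 20 UMIs in IL34LacZ/LacZ against 4, 0 and 2 in IL34LacZ/+. A UMI of Pdgfrb was present in 50.9% of astrocyte-like cells in IL34LacZ/LacZ, at a median of 9450 UMIs, and in 36.6% in IL34LacZ/+, at 8750 UMIs. Among oligodendrocyte-like cells, which had more UMIs per cell, 0 of 234 in IL34LacZ/LacZ and 1 of 255 in IL34LacZ/+ had one. At 1000 UMIs per cell the astrocyte-like share was 7.02% in IL34LacZ/LacZ and 5.76% in IL34LacZ/+. The 3 genes were still present once cells with at least 6 mural genes were left out. Pdgfrb then had 85 UMIs in IL34LacZ/LacZ and 152 in IL34LacZ/+, Notch3 66 in IL34LacZ/LacZ and 144 in IL34LacZ/+, and Atp13a5 118 in IL34LacZ/LacZ and 174 in IL34LacZ/+. Vtn, by contrast, was then at 1 UMI in IL34LacZ/LacZ and 2 in IL34LacZ/+ and Abcc9 at 2 in IL34LacZ/LacZ and 1 in IL34LacZ/+, although Vtn had 1791 UMIs beside 381 of Pdgfrb in pericyte-like cells of IL34LacZ/LacZ. Leaving out cells by their mural genes itself lowers such counts. Before that step, Pdgfrb had 89 UMIs beside 41 of Vtn in IL34LacZ/LacZ and 153 beside 6 in IL34LacZ/+. These 2 genes were thus not in the proportions of pericyte-like cells, and the source of the transcripts was not tested. Over all astrocyte-like cells Vtn had 41 UMIs in IL34LacZ/LacZ against 6 in IL34LacZ/+ and was called higher, as 2.98% of genes were. This call rested on the 2 cells of IL34LacZ/LacZ with at least 6 mural genes.

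Meningeal border-like cells, the barrier cells of the meninges, carried Pdgfrb and small amounts of Cspg4 and Ano1. Pdgfrb was at 57.9 CPM (78 UMIs in 85 cells) in IL34LacZ/LacZ and 45.6 CPM (67 UMIs in 95 cells) in IL34LacZ/+, with a UMI in 48.2% of cells in IL34LacZ/LacZ and 41.1% in IL34LacZ/+. Notch3 had 0 UMIs in IL34LacZ/LacZ and 13 UMIs in IL34LacZ/+. Cspg4 had 20 UMIs in IL34LacZ/LacZ and 36 in IL34LacZ/+, and Ano1 had 12 in IL34LacZ/LacZ and 26 in IL34LacZ/+. No mural gene with at least 30 UMIs in this class was called, against 8.99% of 9140 genes.

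**Figure D5:**
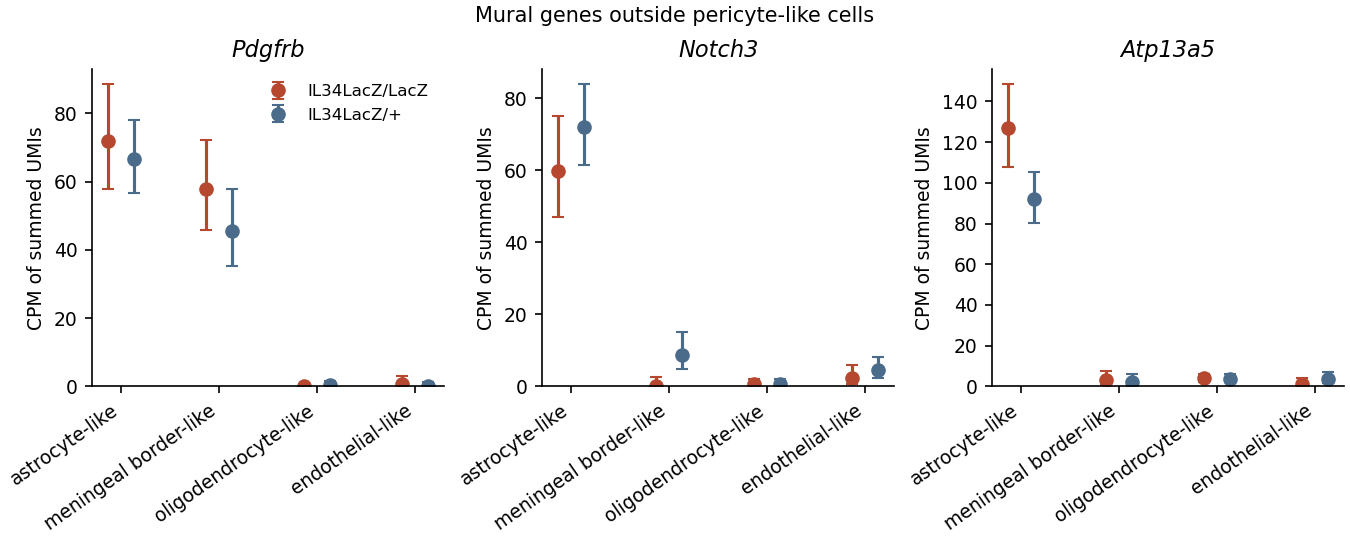
Level of Pdgfrb, Notch3 and Atp13a5 (CPM of summed UMIs, vertical axes) in 4 classes other than pericyte-like cells, with IL34LacZ/LacZ left and IL34LacZ/+ right and exact Poisson 95% intervals for counting error. Astrocyte-like cells lie well above oligodendrocyte-like and endothelial-like cells for the 3 genes, and meningeal border-like cells do so for Pdgfrb, at 57.9 CPM in IL34LacZ/LacZ and 45.6 CPM in IL34LacZ/+.

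Across the 18 combinations of 9 classes and 2 libraries, the genes whose log2(CPM + 1) followed Pdgfrb most closely were Vstm4 with a Pearson r of 0.99, then Heyl, Col5a3, Gucy1a2 and Gm42899 with r between 0.95 and 0.96. Those closest to Pdgfb were Grap with 0.93, Lmo2 with 0.92, Arap3 with 0.92, Stab1 with 0.91 and Mfng with 0.90. The points share libraries and depth, and each class counts in 2 of them. Of the other mural genes, Atp13a5 was nearest to Pdgfrb with 0.84, and Pdgfb and Pdgfrb ran against each other at −0.42.

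The 250 bases upstream of the start annotated by RefSeq are shown for the mural genes that hold TGGGAA, the core of the site bound by RBPJ, the DNA-binding partner of Notch receptors such as Notch3. Windows were available for 7 of the 9 genes, and TGGGAA or its reverse complement was in 3 of them, against 21.6% of 32851 windows of all genes. The sequences are from RefSeq on GRCm38.p6, at chr11:78498870-78499119 on the plus strand for Vtn, chr6:142702275-142702524 on the minus strand for Abcc9 and chr7:144738574-144738823 on the minus strand for Ano1. Each runs 5′ to 3′ in the direction of the gene, and capitals mark the motif, which lies on the opposite strand in Ano1. In GENCODE M21 the gene begins further upstream, so that the RefSeq start lies 29 bases inside the gene for Vtn, 41 for Abcc9 and 13401 for Ano1, whose window is therefore within the gene as GENCODE draws it. A match of these letters is a description of the window only.
Vtn: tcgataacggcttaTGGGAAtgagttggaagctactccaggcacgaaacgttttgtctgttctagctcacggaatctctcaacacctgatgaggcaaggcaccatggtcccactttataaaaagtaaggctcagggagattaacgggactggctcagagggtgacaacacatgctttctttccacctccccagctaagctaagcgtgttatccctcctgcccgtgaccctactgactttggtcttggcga
Abcc9: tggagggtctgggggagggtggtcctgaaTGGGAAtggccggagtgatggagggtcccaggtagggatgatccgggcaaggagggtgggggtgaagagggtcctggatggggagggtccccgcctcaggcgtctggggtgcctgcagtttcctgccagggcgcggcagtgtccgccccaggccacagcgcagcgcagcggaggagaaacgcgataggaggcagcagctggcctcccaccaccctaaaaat
Ano1: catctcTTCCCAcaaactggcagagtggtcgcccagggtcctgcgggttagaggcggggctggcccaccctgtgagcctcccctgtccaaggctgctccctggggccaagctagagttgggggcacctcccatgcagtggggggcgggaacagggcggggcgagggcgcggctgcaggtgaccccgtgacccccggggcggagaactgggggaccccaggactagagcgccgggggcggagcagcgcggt

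Other ligands and receptors of the PDGF family were read in the same cells. In endothelial-like cells, 2 of the 5 genes on that list were measured. Pdgfa, the ligand of the alpha receptor, was called higher, with 58 UMIs (33.2 CPM) in IL34LacZ/LacZ and 46 UMIs (17.8 CPM) in IL34LacZ/+, as 2.58% of all genes in the class were. Pdgfd, another ligand of PDGFR-beta, had 1195 CPM in IL34LacZ/LacZ and 1289 CPM in IL34LacZ/+, a log2 ratio of −0.11 (−0.19 to −0.03). In pericyte-like cells Pdgfd had 7 UMIs in IL34LacZ/LacZ against 25 in IL34LacZ/+ and was called lower, as 11.8% of genes there were. The 12 endothelial markers were lower in the same pericyte-like cells, at 277 CPM in IL34LacZ/LacZ against 1476 CPM in IL34LacZ/+, and their part in this ratio was not tested.

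Genes that retain, process or clear PDGF-B, such as the heparan sulphate enzymes, were mostly not called. In endothelial-like cells 0 of 8 measured were higher, against 2.58% of all genes, and 1 was lower, against 6.84%. The lower one was the heparan sulphate sulphotransferase Hs6st1, with 18 UMIs in IL34LacZ/LacZ against 47 in IL34LacZ/+. In pericyte-like cells 1 of 5, the heparan sulphate polymerase Ext1, was higher, with 26 UMIs in IL34LacZ/LacZ against 6 in IL34LacZ/+. Of the relays that act downstream of PDGFR-beta, 0 of 11 were called in endothelial-like cells, against 9.42% of all genes. In pericyte-like cells 2 of 9 were higher, namely Pik3r1, a regulatory subunit of phosphoinositide 3-kinase, with 578 CPM in IL34LacZ/LacZ and 299 CPM in IL34LacZ/+, and Rasa1, a Ras inhibitor, with 119 CPM in IL34LacZ/LacZ and 54.3 CPM in IL34LacZ/+. For comparison, 8.92% of all genes were called higher in pericyte-like cells. All list calls and gene shares for pericyte-like cells, above and below, include the cells with choroid plexus markers or haemoglobin. In IL34LacZ/+ these cells held 21.1% of the UMIs of the class, and their part in the calls was not tested.

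Of the Notch ligands in endothelial-like cells, 1 of 3 measured was called lower, against 6.84% of all genes. This was Dll4, with 36.6 CPM (64 UMIs) in IL34LacZ/LacZ and 63.6 CPM (164 UMIs) in IL34LacZ/+, a log2 ratio of −0.80 (−1.24 to −0.37), while Jag1 had 91.5 CPM in IL34LacZ/LacZ and 74.1 CPM in IL34LacZ/+ and Jag2 133 CPM in IL34LacZ/LacZ and 157 CPM in IL34LacZ/+. Dll4 is also on the arterial zone list. In pericyte-like cells, 1 of 3 Notch targets was called higher, against 8.92% of all genes, namely Hey2, with 37 UMIs in IL34LacZ/LacZ against 15 in IL34LacZ/+, and Heyl had 231 CPM in IL34LacZ/LacZ and 217 CPM in IL34LacZ/+. Of 18 other signals between endothelium and mural cells measured in endothelial-like cells, 1 was higher, against 2.58% of all genes, and 3 were lower, against 6.84%. Angpt2, which encodes a ligand of the receptor Tie2, was higher, with 37 UMIs in IL34LacZ/LacZ against 30 in IL34LacZ/+. Tgfb2, a growth factor gene, was lower, with 225 CPM in IL34LacZ/LacZ and 355 CPM in IL34LacZ/+. Edn1, the gene of the vasoconstrictor endothelin-1, was lower, with 94.4 CPM in IL34LacZ/LacZ and 169 CPM in IL34LacZ/+. Foxf2, a transcription factor gene, was lower, with 62.4 CPM in IL34LacZ/LacZ and 95.4 CPM in IL34LacZ/+. In pericyte-like cells 1 of 12 was higher, against 8.92%, the adhesion gene Cdh2, with 1117 CPM in IL34LacZ/LacZ and 634 CPM in IL34LacZ/+.

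Other pericyte genes, all but Mcam, Anpep and Il34, served to name the class, so their level in it is no finding. The ratio of the listed genes between libraries can still be set beside that of the mural genes. Of the 18 listed genes measured in pericyte-like cells, 1 was higher, Il34, against 8.92% of all genes, and 1 was lower, against 11.8%. The lower one was Ndufa4l2, a subunit-like protein of the respiratory chain, with 250.3 CPM in IL34LacZ/LacZ and 389 CPM in IL34LacZ/+. A single cell held 12.3% of its UMIs in IL34LacZ/LacZ and 26.7% in IL34LacZ/+, and the call without that cell was not tested. Kcnj8, the pore partner of Abcc9 in the potassium channel, had 404 CPM in IL34LacZ/LacZ and 394 CPM in IL34LacZ/+, a log2 ratio of 0.04 (−0.39 to 0.46). The median of the list was 0.08. Smooth muscle contractile genes were called lower for 2 of the 3 measured, against 11.8% of all genes, from few cells. Acta2 had 10 UMIs in 1 cell of IL34LacZ/LacZ against 24 UMIs in 3 cells of IL34LacZ/+. Myh11 had 25 UMIs in IL34LacZ/LacZ, with 44% of them in 1 cell, against 49 in IL34LacZ/+, with 51.0% in 1 cell. Basement membrane genes, which vascular cells lay down together, had 0 of 10 called in endothelial-like cells, against 9.42% of all genes. In pericyte-like cells 0 of 9 were called, against 20.7%.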

How the data were processed

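The authors deposited raw UMI counts for each gene in each barcode. Per the file headers, Cell Ranger 7.1.0 made them; the genome was GRCm38.p6 (mm10), a build named in the submitters' processing notes. They come from libraries of the Chromium Single Cell 3-prime kit v3.1, per the labels' protocols. No source used here gives the annotation release or says whether free RNA was removed. Totals were 36696941 UMIs over 5400 barcodes (IL34LacZ/LacZ) and 26679053 over 3901 (IL34LacZ/+).

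Barcodes with at least 1000 UMIs, 500 genes and at most 15% mitochondrial UMIs were kept, less those that Scrublet marked (scanpy 1.11.5), 7 in IL34LacZ/LacZ and 3 in IL34LacZ/+, few enough that doublets may remain. Cells were clustered without integration (2000 variable genes, 30 components, 15 neighbours, Leiden resolution 1). The 9 genes, Il34, sex-linked and haemoglobin genes and those of mitochondria and ribosomal proteins took no part. A cluster took the list with the highest median log2 fold (at least 1, with 3 markers detected). The pseudocount of 0.1 UMIs per 10000 in those folds was set after first clusters had been seen. Counts were summed per class and library. CPM carry Poisson, shares Clopper-Pearson and ratios conditional binomial exact intervals. Genes called higher or lower passed 1.5-fold with an interval leaving out 1. Functions were tested on simulated counts. PCR and barcode errors are not in these intervals.

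The members and all lists were chosen with earlier results of these data known. Named genes were the 9 members, the list genes called, up to 4 others per list of most UMIs, and the 5 genes most like Pdgfb and Pdgfrb in level over classes. Alternatives covered cell filters, doublets, gating, clustering, totals, thinning and cells with markers of another class.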

Additional observations from a re-analysis of the deposited data

How the results depend on the processing

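No paired analysis was possible because each genotype has 1 library. The lower Pdgfb level in endothelial-like cells kept its direction under all 13 alternatives, with log2 ratios between −0.61 and −0.41. Under each of them the 8 mural genes were highest in pericyte-like cells in both libraries. The alternative with no minimum of UMIs in the class could not change these results. Nor could it change the mural gene ratios in pericyte-like cells below, since all 8 genes already passed that minimum. The number of mural genes called in pericyte-like cells was 0 in 12 alternatives and 1 with cells gated one by one, where Rgs5 was at −0.62 and Atp13a5 changed sign to −0.11; the cause was not tested. Of 104 ratios of single mural genes recomputed, 87 stayed within the interval first given and 16 moved outside it, the other being that of Atp13a5. The 87 overstate stability, since some settings left the class at 48 cells in IL34LacZ/LacZ and 38 in IL34LacZ/+. Those were Leiden resolution 2, another seed and the naming pseudocount of 0.05. The pseudocount setting kept the same clusters, so it could not change these ratios while the pericyte-like cluster kept its name. The sign changed in 15 of the 104, all but Atp13a5 starting from an interval that held 1. With 0.05 as the pseudocount in naming clusters, and with the removal of cells carrying choroid plexus markers or haemoglobin, both chosen after seeing the data, the Pdgfb log2 ratio was −0.41 and −0.42. The pseudocount cut the endothelial-like class to 181 cells in IL34LacZ/LacZ and 336 in IL34LacZ/+, against 301 in IL34LacZ/LacZ and 509 in IL34LacZ/+. Another clustering seed, and likewise keeping doublets, gave 220 cells in IL34LacZ/LacZ and 400 in IL34LacZ/+. Leiden resolution 2 gave 218 cells in IL34LacZ/LacZ and 396 in IL34LacZ/+. The capillary over venous log2 ratio of Pdgfb changed sign to −0.18 in IL34LacZ/LacZ at 1000 UMIs per cell, where few UMIs remain. Depth limits microglia-like cells most, with 15 Pdgfb UMIs in IL34LacZ/LacZ and 19 in IL34LacZ/+.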

Other observations

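Barcodes left out by the filters or as doublets held some transcripts of the 9 genes. In IL34LacZ/LacZ these barcodes held between 6.70% (Atp13a5) and 10.6% (Notch3) of all UMIs of a gene, against between 1.90% (Ano1) and 7.16% (Pdgfrb) in IL34LacZ/+. More barcodes were left out in IL34LacZ/LacZ, at 4232 against 2236 in IL34LacZ/+, and 2581 of them in IL34LacZ/LacZ and 1501 in IL34LacZ/+ were over the mitochondrial limit. Vtn had 219 UMIs in 151 of the left-out barcodes of IL34LacZ/LacZ and 63 UMIs in 42 of those of IL34LacZ/+.

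Choroid plexus epithelium-like cells carried Vtn at 38.2 CPM in IL34LacZ/LacZ and 39.4 CPM in IL34LacZ/+, with the other mural genes at 2.17 CPM or less in either library. Ano1 had 16 UMIs in astrocyte-like cells of IL34LacZ/+ and 1 UMI in those of IL34LacZ/LacZ once cells with at least 6 mural genes were left out.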
